A study of Capra hircus with 72 samples.

Results

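The nucleus tractus solitarii (NTS) of goats that ended 14 days of raised CO2 at 8% was compared with the NTS of goats that stayed at 6% throughout. The members were chosen by their labels alone: 6 moderate and 6 mild libraries, 12 of the 72 in the series. All samples came from female Capra hircus. In mild chronic hypercapnia the animals had 6% CO2 for 14 days, and in moderate chronic hypercapnia they had 6% for 7 days followed by 8% for 7 days, so the CO2 level differed between the groups in the second week alone. A further 6 NTS libraries from animals in room air give the level without added CO2. Bulk RNA of dissected medulla was sequenced after a low-input library preparation. The series gives 6 animals for each condition, but the labels do not say that each replicate of a region is a different animal, so p-values measure the spread between libraries. The sources used here give neither strain nor age.

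The NTS is the first relay in the medulla for signals from the lungs, blood vessels, gut and arterial chemoreceptors. Its neurons pass these signals to the circuits that set breathing and blood pressure, and some of them respond to CO2 or acid themselves. Glutamate is the main transmitter of the incoming fibres, GABA and glycine act locally, and neuropeptides and catecholamines shape the output. Astrocytes in this part of the brainstem take up transmitter and buffer acid, and microglia are its resident immune cells.

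The labelled region was checked against markers on a scale common to all 72 libraries, as counts scaled to library size (CPM). The hindbrain gene HOXB5 was at 59.5 CPM or more in every hypercapnic NTS library, at no more than 1.496 CPM in the hypercapnic retrotrapezoid nucleus (RTN) and at no more than 0.0895 CPM in the hypercapnic medial prefrontal cortex (mPFC). The ventral respiratory column lay nearer to NTS, at 13.9 to 34.3 CPM in mild and 17.6 to 47.8 CPM in moderate. NEUROD6, a cortical neuron gene, did not exceed 5.67 CPM in hypercapnic NTS, against at least 25.5 CPM in hypercapnic mPFC. Totals were 19.1 ± 2.32 M counts in mild, 16.9 ± 2.30 M in moderate and 20.9 ± 5.24 M in room air (SD, n = 6 each), with single libraries between 13.9 M and 28.1 M.

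Some libraries stood apart in cell markers, on the mean log2 CPM of each marker list. Mild replicate 2 was highest of the 12 hypercapnic libraries in myelin genes (8.12) and lowest in motor neuron genes (2.90, the others 3.79 or more). Moderate replicate 5 stood at 4.60 for choroid plexus genes, where the mild libraries lay between 0.935 and 2.07. Mild replicates 5 and 3 were highest in T cell and leukocyte genes (2.83 and 2.35), and room air replicates 5 and 1 were high as well (2.66 and 2.16). In bulk tissue, fewer cells of a type and less RNA per cell cannot be told apart.

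**Figure D1:**
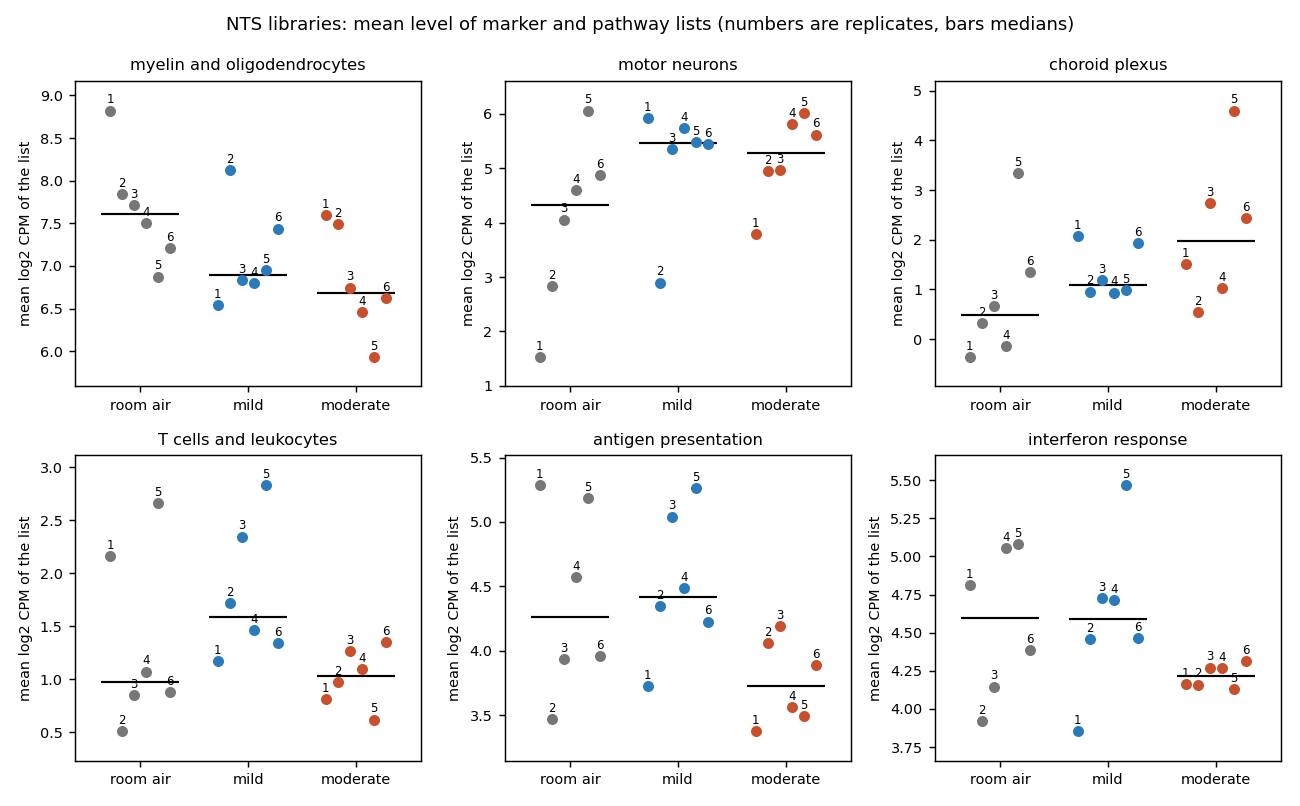
Mean log2 CPM of the tested members of 6 lists in each NTS library, by condition; each point is 1 library with its replicate number and the bars are medians. Mild replicate 2 is apart in myelin and motor neuron genes, moderate replicate 5 in choroid plexus genes, and mild replicates 3 and 5 in the leukocyte and antigen presentation lists.

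No gene passed the test for moderate against mild. Of 15418 genes tested with edgeR's quasi-likelihood test, 0 (0%) were called at an adjusted p under 0.05, and the smallest adjusted p was 0.9995. At an unadjusted p under 0.05 there were 620 genes (4.02%), fewer than the 771 that chance gives, with 263 higher in moderate (1.71%) and 357 lower (2.32%). limma with quality weights also called 0, with 1259 genes at an unadjusted p under 0.05, and DESeq2 called 1 of 15416 (0.00649%). Differences were small: the median log2 fold change was 0.00 and the quartiles were -0.12 and 0.10, with 50.1% of genes above 0. Counts were simulated at the same depth, with each gene's spread set to the trend over genes of like level. On these, edgeR called 22.4% of genes changed 1.5-fold, 76.9% of those changed 2-fold and 100% of those changed 4-fold. It also called 4 of 15135 unchanged genes. Most 1.5-fold differences were thus not called in the simulation. Spread peculiar to single genes and shifts in cell content between libraries were not simulated, so detection in the real libraries may differ. Every gene named from here on is a description of levels in these libraries. None is a change called by edgeR in NTS, and DESeq2 called only the gene described next. Log2 fold changes are given as moderate over mild ± SE.

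The gene that DESeq2 called has no symbol (ENSCHIG00000000053, on an unplaced scaffold). It stood at 0.777 to 2.19 CPM in the mild libraries. In the moderate libraries 5 values lay between 6.84 and 15.5 CPM and replicate 4 was at 0.962 CPM, inside the mild range. Room air libraries spanned 1.11 to 14.5 CPM, so levels as high as those in moderate were also found without added CO2. Its log2 fold change was 2.60 ± 0.56 with edgeR, and its adjusted p was 0.00421 with DESeq2 and 0.9995 with edgeR.

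The difference of smallest p among genes with a symbol was in HENMT1 (ENSCHIG00000013249, chromosome 3), the enzyme that methylates the ends of small RNAs of the piRNA class. It was at 9.87, 11.3 and 14.97 CPM (lowest, median, highest) in mild and at 7.02, 8.16 and 8.52 CPM in moderate. All 6 moderate libraries lay below all 6 mild ones, and also below the 11.99 CPM of the lowest room air library. Its log2 fold change was -0.55 ± 0.11, at an unadjusted p of 0.000104 and an adjusted p of 0.9995 with edgeR. Over all genes tested, 45 (0.292%) had every moderate library below every mild one, and 21 (0.136%) had every moderate library above.

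On the higher side, the genes of smallest p included 4 enzymes, and no list of such enzymes was tested. ETNPPL (ENSCHIG00000015229, chromosome 6), a phospholyase of phosphoethanolamine found in the brain mainly in astrocytes, was at 41.9, 47.7 and 52.7 CPM in mild and 54.7, 65.3 and 73.1 CPM in moderate. The groups did not overlap, the room air libraries ran from 33.9 to 59.6 CPM, and the log2 fold change was 0.46 ± 0.12. ALDH6A1 (chromosome 10), a mitochondrial dehydrogenase of valine and pyrimidine breakdown, was at 73.7, 82.7 and 95.0 CPM in mild and 95.5, 104 and 111 CPM in moderate. Its ranges touched without crossing, and the log2 fold change was 0.30 ± 0.08. PC (chromosome 29), pyruvate carboxylase, which refills the citric acid cycle and in the brain is mainly glial, was at 113, 141 and 159 CPM in mild and 161, 179 and 196 CPM in moderate. These groups did not overlap either, and the log2 fold change was 0.36 ± 0.11. GLS2, the mitochondrial glutaminase that makes glutamate from glutamine, had medians of 17.8 CPM in mild and 29.9 CPM in moderate. Moderate replicate 4 was at 15.6 CPM, below every mild library, so the groups overlapped (log2 fold change 0.57 ± 0.18).

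The remaining genes named at this rank have diverse roles. MYLIP, a ubiquitin ligase that degrades the LDL receptor, was at 23.5 to 28.1 CPM in mild and 29.8 to 34.6 CPM in moderate, without overlap. PALB2, a partner of BRCA2 in DNA repair, had a log2 fold change of 0.51 ± 0.14 and POP1, a subunit of RNase P, one of 0.72 ± 0.20. In both, 6 of 6 moderate libraries were above the mild median while the ranges crossed. WDR6, a WD-repeat protein that takes part in tRNA modification, was at a median of 203 CPM in mild and 300 CPM in moderate, and MIGA2, a protein of the outer mitochondrial membrane, at 45.6 and 57.6 CPM. On the lower side, the zinc finger gene ZNF180 was at 13.6 to 16.3 CPM in mild and 10.2 to 13.5 CPM in moderate. ATG16L2, a paralogue of an autophagy protein, was at a median of 12.99 CPM in mild and 8.89 CPM in moderate, and the ranges met at 11.1 CPM.

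**Figure D2:**
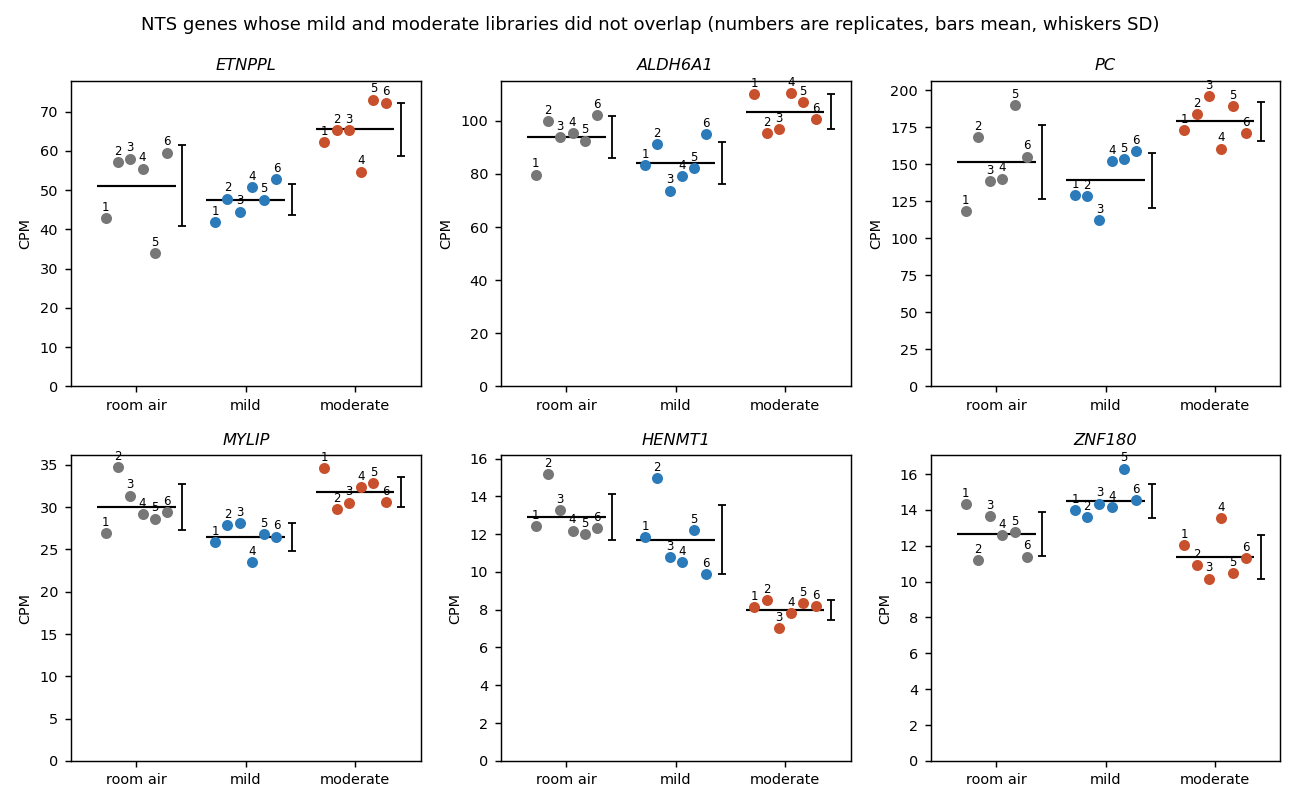
CPM of 6 genes by library, from 0, in room air, mild and moderate NTS; points carry replicate numbers, bars are means and whiskers SD over 6 libraries. Moderate lies wholly above mild for ETNPPL, ALDH6A1, PC and MYLIP and wholly below for HENMT1 and ZNF180, and room air overlaps 1 or both groups in every panel.

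The gene lists were described by counts and medians beside those of all genes. Among lists with at least 5 tested members, those farthest below 0 were antigen presentation (median log2 fold change -0.92), T cells and leukocytes (-0.91) and interferon response (-0.46), against a median of 0.00 and a lower quartile of -0.12 over all genes. Among the same lists, those farthest above 0 were choroid plexus (0.41), ependyma (0.25) and acetylcholine (0.16). These last medians moved with single libraries. Without moderate replicate 5 choroid plexus was at 0.26 and ependyma at -0.0905, and without mild replicate 2 acetylcholine was at 0.00795. With the myelin covariate ependyma was at -0.13 and acetylcholine at -0.098, and without mild replicates 3 and 5 choroid plexus was at 1.93. The lists of neurons (0.01), endothelium (-0.02), fibroblasts and meninges (0.01) and nuclear genes of oxidative phosphorylation (-0.00) lay at the median of all genes.

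**Figure D3:**
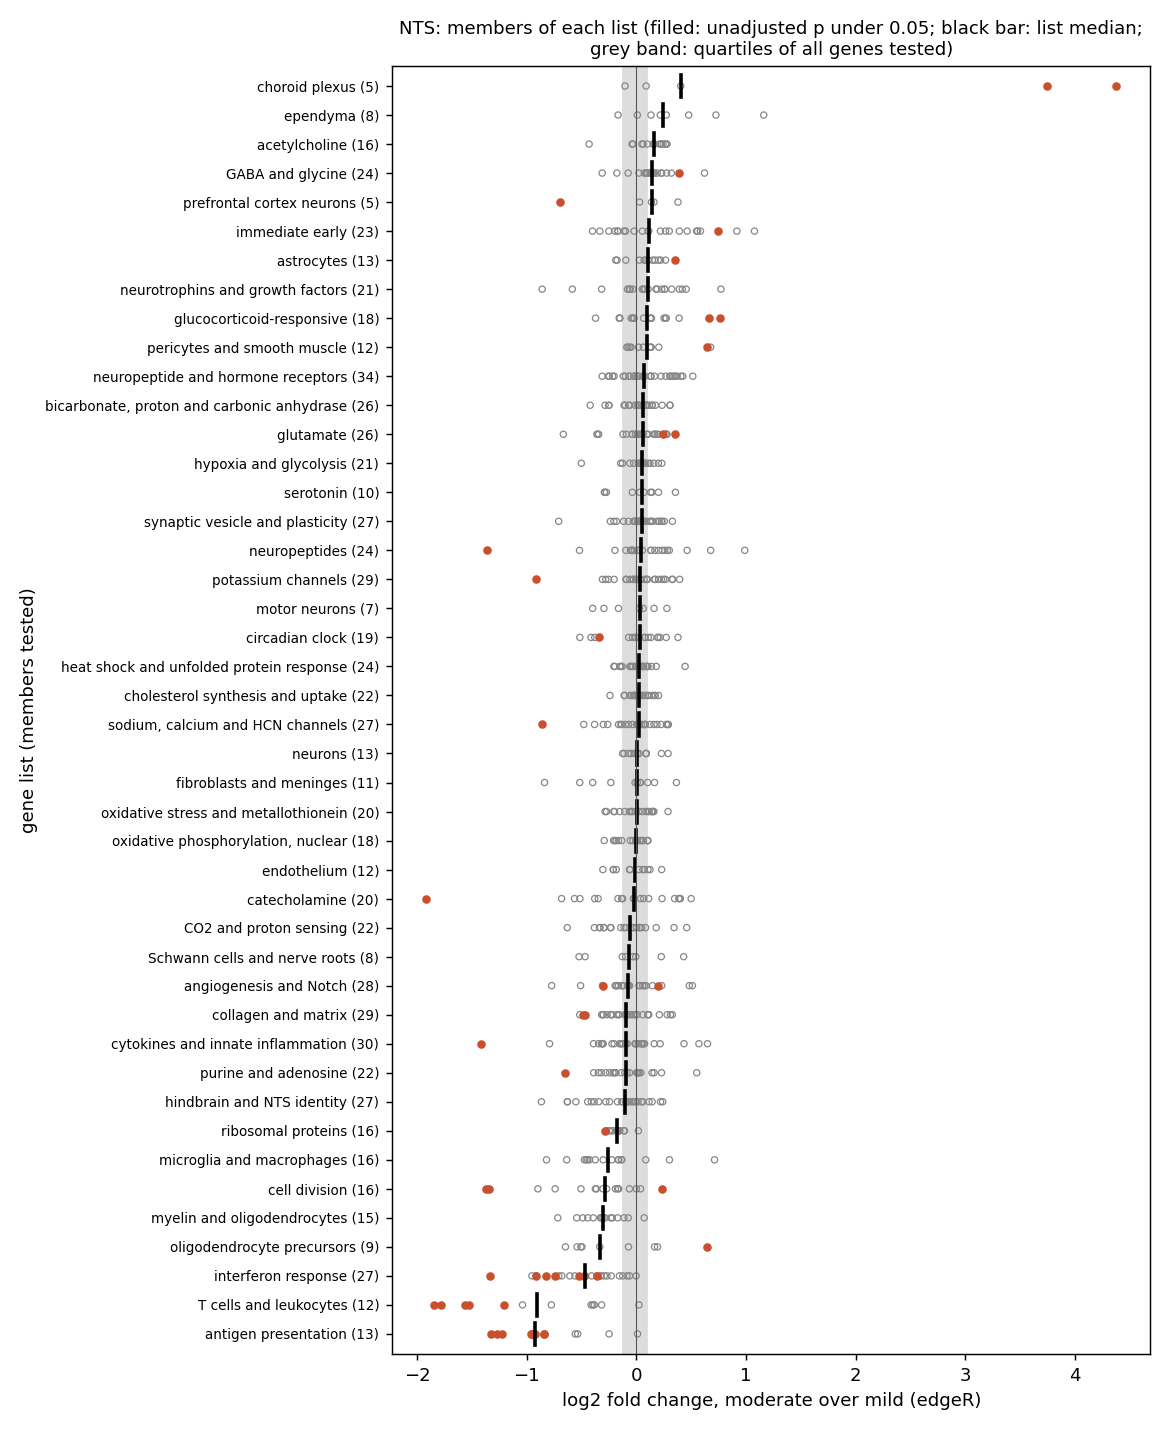
Log2 fold changes of moderate over mild for the tested members of each list with at least 5 of them; circles are genes, filled where the unadjusted p is under 0.05, black bars are list medians and the grey band spans the quartiles of all genes, -0.12 to 0.10. The 3 immune lists lie lowest, and the 2 far right points are TTR and KCNJ13 of the choroid plexus list.

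Antigen presentation genes were lower in moderate in 12 of the 13 measured, and 9 of 13 were lower at an unadjusted p under 0.05, where 2.32% of all genes were. None passed the adjusted test. HLA-DRA, the alpha chain of an MHC class II molecule that shows peptides to helper T cells, was at 66.3, 142 and 274 CPM in mild and 42.2, 65.1 and 97.9 CPM in moderate. All 6 moderate libraries were below the mild median, but mild replicate 1 stood at 66.3 CPM, within the moderate range, and room air spread from 39.2 to 257 CPM. The log2 fold change was -1.33 ± 0.41. DRB3, a class II beta chain, is not a member of the list and was named for its small p. Its levels were 51.4, 107 and 269 CPM in mild and 33.4, 47.9 and 75.9 CPM in moderate (log2 fold change -1.54 ± 0.44). CIITA, the transcription factor that switches class II genes on, was at 3.29, 4.63 and 10.9 CPM in mild and 1.60, 2.06 and 4.65 CPM in moderate (-1.22 ± 0.39). Its highest mild values were those of replicates 3 and 5, at 10.9 and 10.4 CPM, and the other 4 mild libraries were at or below 5.17 CPM. HLA-DMA, which helps load peptides, had medians of 19.5 and 10.51 CPM, and HLA-DOB, which tunes that loading, 16.4 and 10.4 CPM, in mild and moderate. Histocompatibility genes are near-identical copies of one another and the counting of shared reads is not stated, so values of single members are uncertain.

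Interferon-response genes were lower in moderate in 27 of 27, with 7 of them at an unadjusted p under 0.05, where 2.32% of all genes were. RSAD2, an antiviral enzyme, was at 3.52, 5.50 and 12.8 CPM in mild and 2.13, 2.74 and 3.85 CPM in moderate. All moderate libraries were under the mild median and mild replicates 4 and 5 were highest (log2 fold change -1.34 ± 0.44). ISG15, a ubiquitin-like protein induced by interferon, was at 12.6, 21.4 and 60.7 CPM in mild and 10.9, 13.9 and 18.4 CPM in moderate. The mild range here was set by replicate 5 at 60.7 CPM, with the next library at 30.4 CPM. IFI44L had medians of 11.3 CPM in mild and 6.44 CPM in moderate, and XAF1, a proapoptotic interferon target, 19.4 and 13.8 CPM. The moderate libraries were tight on this list, between 4.13 and 4.32 in mean log2 CPM, while mild spread from 3.85 to 5.47 and room air from 3.92 to 5.08. The moderate values thus lay inside the ranges of both other groups.

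Markers of T cells and leukocytes were lower in 11 of 12 measured. At an unadjusted p under 0.05, 5 were lower, where 2.32% of all genes were. CD4, the co-receptor of helper T cells, was at 1.55, 2.84 and 7.29 CPM in mild and 1.02, 1.16 and 1.58 CPM in moderate. Only the lowest mild library overlapped with moderate, and the log2 fold change was -1.53 ± 0.45. CD3G and CD3D, chains of the T cell receptor complex, were at medians of 1.75 and 1.15 CPM in mild and 0.701 and 0.694 CPM in moderate. Mild replicate 5 reached 6.19 CPM for CD3G and 5.33 CPM for CD3D. CD79A, of the B cell receptor, was at 0.797 to 2.21 CPM in mild and 0.365 to 0.775 CPM in moderate, with no overlap. The summed level of the list was 46.0 to 113 CPM in mild and 45.3 to 62.3 CPM in moderate. No defining T cell marker named here was at 0 in any hypercapnic library.

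ARHGAP9, a gene of blood cells, was at 2.05 to 3.80 CPM in mild and 1.15 to 1.87 CPM in moderate. LTB, the lymphotoxin beta chain, was at 6.43 to 15.01 and 3.15 to 6.11 CPM, and CCL8, a chemokine that draws monocytes, at 17.4 to 36.1 and 11.3 to 17.3 CPM, each without overlap between mild and moderate. Of 30 cytokine and innate genes 19 were lower and 11 higher, with a median of -0.09. At an unadjusted p under 0.05, 1 was lower, where 2.32% of all genes were. That gene was IL1RN, the interleukin 1 receptor antagonist, at medians of 1.70 CPM in mild and 0.719 CPM in moderate. Microglia and macrophage markers were lower in 13 of 16 with a median of -0.26, and 0 of 16 were at an unadjusted p under 0.05. That count was 4 without mild replicate 1 (median -0.38), 4 with the hypercapnic libraries alone and 3 with limma. Over all genes, in both directions, limma had 1259 at that p. The main fit had 620, and fits with 1 hypercapnic library left out had 478 to 717. All alternatives lay between 408 and 1259, and the count of the hypercapnic libraries alone is not given here. Among the microglia and macrophage markers AIF1, which marks microglia, was at 54.7, 66.4 and 90.1 CPM in mild and 42.2, 50.05 and 60.0 CPM in moderate. C1QC, a complement subunit, had medians of 115 and 89.7 CPM, TYROBP, a microglial signalling adaptor, 32.8 and 23.9 CPM, and the lysosomal CD68 8.81 and 5.68 CPM.

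The immune values moved with 2 mild libraries. With mild replicates 3 and 5 left out together, the median was -0.43 for antigen presentation, with 0 members lower at an unadjusted p under 0.05. It was -0.19 for interferon response and -0.35 for T cells and leukocytes, with 2 members each. Leaving out mild replicate 5 alone gave -0.73, -0.26 and -0.69 with 3 members each, and leaving out mild replicate 3 alone gave -0.76, -0.39 and -0.71 with 5 members each. Without mild replicate 1 the counts were larger, at 11 members of antigen presentation, 14 of interferon response and 6 of T cells and leukocytes. The count over all genes, in both directions, moved too. It was 620 in the main fit, 408 without mild replicates 3 and 5, and 478 to 717 with 1 hypercapnic library left out. HLA-DRA was then at -0.84 without both libraries (unadjusted p 0.0595), DRB3 at -0.87 and CIITA at -0.58, while RSAD2 stayed at -1.30. The 3 medians were below 0 under every setting tried. The same 2 mild libraries were the highest in leukocyte markers and in antigen presentation genes, and the part of leukocytes in the difference was not tested.

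**Figure D4:**
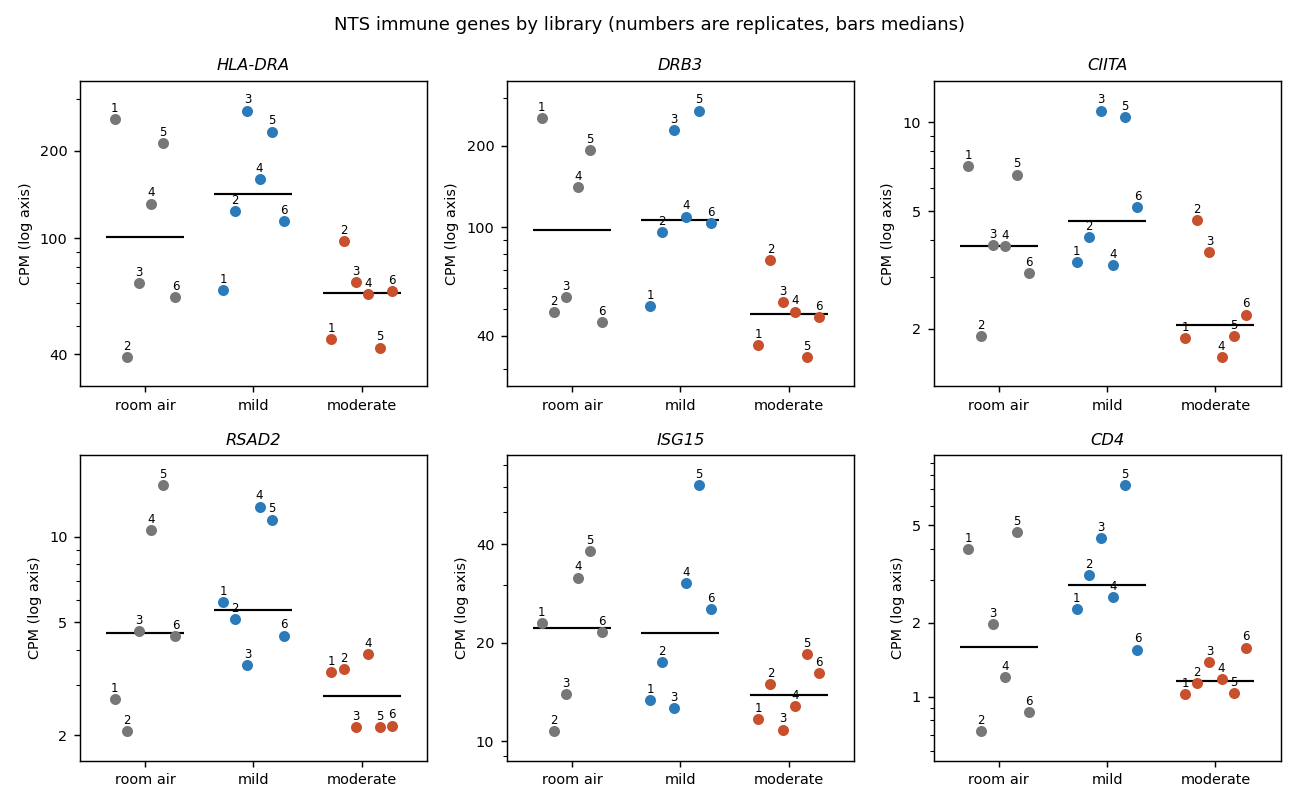
CPM on a log axis of HLA-DRA, DRB3, CIITA, RSAD2, ISG15 and CD4 in each NTS library; numbers are replicates and bars medians of 6. The moderate median lies below the lowest mild library for HLA-DRA, DRB3, CIITA, RSAD2 and CD4 but not for ISG15, mild replicates 3 and 5 are the highest mild libraries for HLA-DRA, DRB3, CIITA and CD4, and room air overlaps both groups.

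Among markers of brain cells, myelin genes were lower in moderate in 14 of 15, with a median of -0.30 and 0 at an unadjusted p under 0.05. MOBP, a myelin protein, was at 97.7, 146 and 344 CPM in mild and 63.8, 104 and 212 CPM in moderate, and UGT8, which makes myelin lipids, at medians of 62.9 and 43.8 CPM. The highest mild value in both was replicate 2. Without that library the median of the list was -0.07, and without moderate replicate 1 it was -0.48. Oligodendrocyte precursor genes had a median of -0.33 over 9 members, -0.04 without mild replicate 2 and -0.55 without moderate replicate 1. Of these 9, 1 was at an unadjusted p under 0.05, where 4.02% of all genes were in both directions, and it went the other way. That was CSPG4, a proteoglycan of precursors and pericytes, with medians of 7.54 CPM in mild and 11.1 CPM in moderate (log2 fold change 0.64 ± 0.22).

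Astrocyte genes were higher in 10 of 13 with a median of 0.11, where 50.1% of all genes were higher. SLC1A2, the main glutamate uptake transporter of astrocytes, was at 40.4, 48.3 and 63.2 CPM in mild and 48.4, 66.4 and 80.2 CPM in moderate, with every moderate library above the mild median. Its log2 fold change was 0.36 ± 0.16 at an unadjusted p of 0.0402. Choroid plexus genes were led by TTR, the thyroxine carrier of cerebrospinal fluid, at 531 CPM in moderate replicate 3 and 1638 CPM in replicate 5. The other moderate libraries ran from 3.36 to 140 CPM and the mild ones from 2.04 to 51.8 CPM. KCNJ13, a potassium channel of the same epithelium, was at 76.3 CPM in moderate replicate 5 and at no more than 5.39 CPM in the other hypercapnic libraries. Without moderate replicates 3 and 5, the log2 fold change of TTR went from 4.38 to 1.09 and that of KCNJ13 from 3.75 to 0.72.

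Neuropeptide genes were compared in level on the deposited RPKM scale, which divides by gene length. Of the 12 genes shown, from 24 measured, PENK, the enkephalin precursor, was highest at 689 ± 183 RPKM in mild and 840 ± 295 in moderate (SD, n = 6). SST, somatostatin, followed at 517 ± 160 and 448 ± 115 RPKM. GAL, galanin, stood at 213 ± 90.8 and 205 ± 140 RPKM, and ADCYAP1, which encodes PACAP, a peptide linked to breathing responses to CO2, at 159 ± 59.2 and 185 ± 73.9 RPKM, so these neighbours in the order did not differ beyond their spread. TAC1, the substance P precursor, was at 63.5 ± 28.6 and 65.5 ± 34.5 RPKM and CCK, cholecystokinin, at 56.4 ± 13.4 and 61.2 ± 22.3 RPKM, also within one another's spread. CARTPT, PNOC, PDYN and NPY made a group of like level, with means of 8.93 to 12.4 RPKM in mild and 9.63 to 19.5 RPKM in moderate. UCN and VIP were the lowest of the 12, at means of 3.46 and 1.49 RPKM in mild.

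Between moderate and mild, 15 of 24 measured neuropeptide genes were higher and 9 lower, with a median of 0.04. At an unadjusted p under 0.05 there was 1 member of the 24, where 4.02% of all genes were in both directions. That was UCN, urocortin, a peptide of the corticotropin-releasing family. It was at 0.238, 1.38 and 2.70 CPM in mild and 0.0639, 0.432 and 1.28 CPM in moderate. Every moderate library lay below the mild median, but the ranges crossed, and room air was at 0.0855 to 0.757 CPM. The log2 fold change was -1.36 ± 0.64. CARTPT, the precursor of the CART peptide of vagal pathways, was at 9.79, 17.6 and 23.7 CPM in mild and 6.26, 27.5 and 74.2 CPM in moderate. Its highest values were moderate replicates 5 and 3, at 74.2 and 62.7 CPM, and without those 2 libraries its log2 fold change went from 0.99 ± 0.47 to 0.04. PENK had a log2 fold change of 0.30 ± 0.28, ADCYAP1 of 0.24 ± 0.43, SST of -0.19 ± 0.28 and VIP of 0.68 ± 0.62. For TAC1, NPY, CCK and GAL it lay between -0.04 and 0.13, with SEs of 0.24 to 0.55, and its sign changed under some of the alternative settings. The 95% interval of the PENK difference, -0.30 to 0.91 spans both signs.

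**Figure D5:**
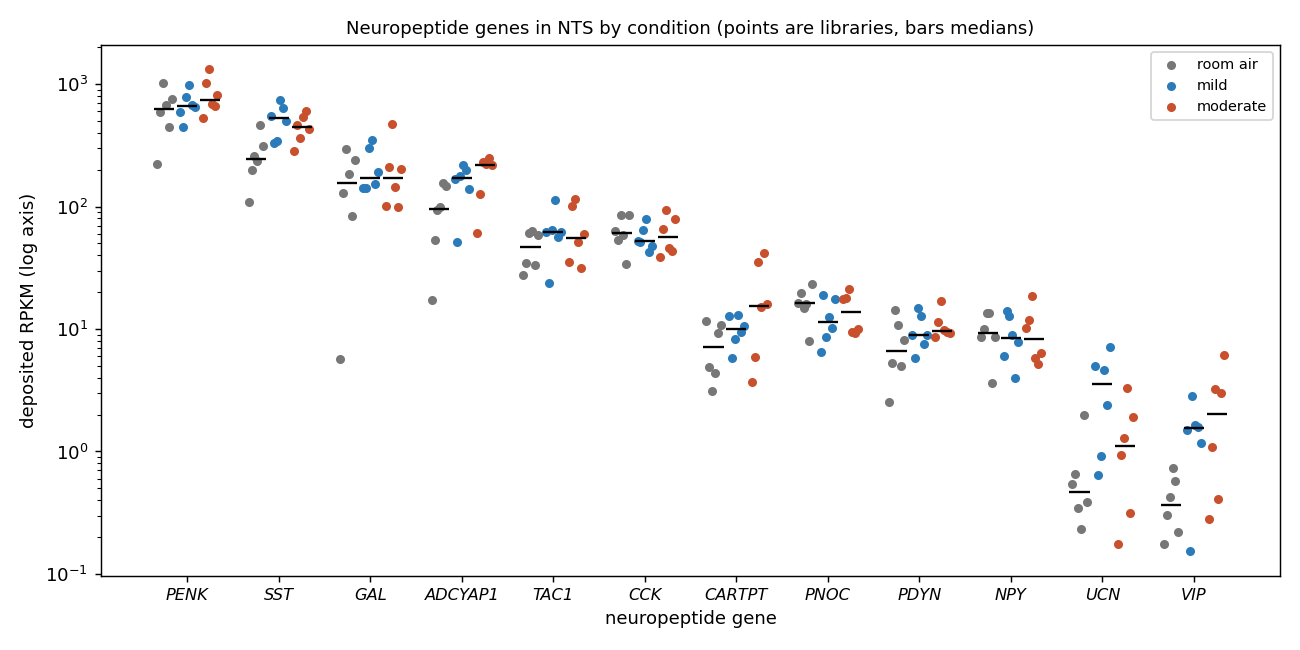
Deposited RPKM on a log axis of 12 neuropeptide genes in each NTS library, ordered by their mean in the 12 hypercapnic libraries; points are libraries, bars medians. Of the 12, PENK and SST are highest and UCN and VIP lowest in both hypercapnia groups, and the mild and moderate libraries overlap for each gene.

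Of the transmitter systems, GABA and glycine genes were higher in 21 of 24 with a median of 0.14, and 1 was higher at an unadjusted p under 0.05, where 1.71% of all genes were. That was GABRA5, a GABA-A receptor subunit, at 10.6, 11.2 and 12.6 CPM in mild and 10.8, 15.6 and 19.4 CPM in moderate (log2 fold change 0.39 ± 0.18). Glutamate genes were higher in 17 of 26 with a median of 0.06. Besides SLC1A2, the kainate receptor subunit GRIK1 was higher at an unadjusted p under 0.05, where 1.71% of all genes were. GRIK1 had medians of 36.2 CPM in mild and 40.2 CPM in moderate. GRIN1, the obligatory NMDA receptor subunit, was at 299 and 343 CPM. Acetylcholine genes were higher in 13 of 16 (median 0.16) with 0 at an unadjusted p under 0.05, and CHRNA4, a nicotinic subunit, was at 9.87 and 10.9 CPM. SLC5A7, the choline transporter of cholinergic terminals, ranged from 14.3 to 199 CPM in mild and 30.7 to 267 CPM in moderate, and its lowest mild value was that of replicate 2.

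Catecholamine genes were split, 9 higher and 11 lower, with a median of -0.02. At an unadjusted p under 0.05 there was 1 member, where 4.02% of all genes were in both directions. That was ADRA2C, an alpha-2 adrenergic receptor that inhibits transmitter release. It was at 0.285, 1.82 and 5.41 CPM in mild and 0.0719, 0.639 and 1.09 CPM in moderate. Mild replicates 1, 5 and 6 were at 2.83 CPM or more and the other 3 lay within the moderate range, and the log2 fold change was -1.91 ± 0.64. Serotonin genes had a median of 0.05 over 10 members and 0 at an unadjusted p under 0.05. HTR2B, a serotonin receptor, was at medians of 21.7 and 19.5 CPM. Receptors of neuropeptides and hormones were higher in 22 of 34, with a median of 0.07 and 0 at an unadjusted p under 0.05. The neurotensin receptor NTSR2, an astrocyte gene, was at 160 and 212 CPM.

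Genes tied to sensing CO2 and protons were higher in 9 of 22 and lower in 13, with a median of -0.06 and 0 at an unadjusted p under 0.05. KCNJ10, a pH-sensitive potassium channel of astrocytes, had medians of 77.1 and 66.6 CPM, below the lowest room air library at 93.3 CPM. GJB6, a gap junction connexin of astrocytes, was at 17.4 to 93.8 CPM in mild and 59.1 to 72.5 CPM in moderate. The moderate libraries were tight and the mild ones wide, so the medians of 39.0 and 62.9 CPM differ within the mild spread. Genes of bicarbonate, proton transport and carbonic anhydrases were higher in 17 of 26 (median 0.06), with 0 at an unadjusted p under 0.05. CA11, a carbonic anhydrase-related protein, had medians of 43.3 and 37.5 CPM, and SLC9A9, an endosomal sodium-proton exchanger, 6.37 and 4.40 CPM.

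Ion channel lists lay near the median of all genes. Potassium channels had a median of 0.03 over 29 members, and sodium, calcium and HCN channels 0.02 over 27. In each list 1 member was at an unadjusted p under 0.05, where 4.02% of all genes were in both directions. Both members were lower in moderate and low in level. KCNQ5, an M-current subunit, was at 0.808, 1.18 and 5.12 CPM in mild and 0.647, 0.921 and 1.47 CPM in moderate, its highest mild value being that of replicate 1. CACNA1H, a T-type calcium channel, had medians of 2.63 and 1.39 CPM. Purine and adenosine genes were lower in 13 of 22 (median -0.09), and P2RY2, a receptor for ATP and UTP, was at medians of 3.29 and 1.93 CPM. Synaptic vesicle and plasticity genes had a median of 0.05 over 27, growth factors 0.11 over 21 and the hindbrain and NTS identity list -0.10 over 27, each with 0 members at an unadjusted p under 0.05.

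Glucocorticoid-responsive genes were higher in 10 of 18 with a median of 0.10, and 2 were higher at an unadjusted p under 0.05, where 1.71% of all genes were. That count was 0 without mild replicate 1, 2, 3 or 4 and without moderate replicate 3 or 6, and the median was 0.031 without moderate replicate 3. FKBP5, a chaperone induced by the glucocorticoid receptor, was at 12.98, 13.7 and 30.3 CPM in mild and 15.8, 24.1 and 66.2 CPM in moderate. All 6 moderate libraries were above the mild median and 2 mild libraries, replicates 5 and 6, lay in the middle of the moderate range. The log2 fold change was 0.76 ± 0.33, and 0.38 without moderate replicate 3, the library at 66.2 CPM. PDK4, which restrains pyruvate oxidation, was at medians of 36.1 and 62.3 CPM (0.66 ± 0.31), and 64.3 CPM in room air. ANGPTL4, an inhibitor of lipoprotein lipase, was at 8.16 and 9.79 CPM. Immediate early genes, which follow neuronal activity within minutes, were higher in 14 of 23 (median 0.11). FOS was at 16.3, 20.9 and 38.9 CPM in mild and 18.4, 35.6 and 71.2 CPM in moderate, highest in moderate replicate 3 (0.75 ± 0.34, unadjusted p 0.0389). That library was also highest for NR4A1 among the hypercapnic libraries, at 23.4 CPM, and for EGR4 at 10.98 CPM and EGR1 at 40.6 CPM. Without it the FOS value was 0.48 and the list median -0.01.

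Clock genes had a median of 0.03, and DBP, an output gene of the clock, was at 50.7, 66.4 and 81.8 CPM in mild and 36.2, 54.0 and 65.8 CPM in moderate (-0.34 ± 0.15). PER1, which responds to both light and glucocorticoids, had medians of 26.5 and 31.0 CPM. The labels used here give no hour of sampling. Hypoxia and glycolysis genes were higher in 16 of 21 with a median of 0.06 and 0 at an unadjusted p under 0.05. ADM, adrenomedullin, a vasodilator induced by low oxygen, had medians of 6.32 CPM in mild and 4.04 CPM in moderate, and 8.12 CPM in room air. Cholesterol genes (median 0.02 over 22), heat shock genes (0.02 over 24) and oxidative stress genes (0.01 over 20) had 0 members at an unadjusted p under 0.05.

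Ribosomal protein genes were lower in 15 of 16 with a median of -0.18. At an unadjusted p under 0.05, 1 was lower, where 2.32% of all genes were. RPS14, a protein of the small subunit, was at 125, 129 and 144 CPM in mild and 97.3, 107 and 124 CPM in moderate, without overlap. Its log2 fold change was -0.28 ± 0.13. RPS10 had medians of 69.2 and 56.0 CPM. In the fit of the 12 hypercapnic libraries alone, 8 of the ribosomal genes were lower at an unadjusted p under 0.05, and 7 with limma, still with none called. Over all genes, limma had 1259 at that p in both directions, against 620 in the main fit. All alternatives lay between 408 and 1259, and the count of the hypercapnic libraries alone is not given here. The ribosomal count was 0 with the myelin covariate, where the median was -0.10, and in most fits with 1 library left out. Ribosomal protein genes have processed copies across the genome, so their counts are uncertain.

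Collagen and matrix genes were lower in 20 of 29 (median -0.09), 2 of them at an unadjusted p under 0.05, where 2.32% of all genes were. COL4A1 and COL4A2 encode the paired chains of vascular basement membrane. COL4A1 was at 24.1, 34.6 and 45.5 CPM in mild and 19.5, 24.4 and 31.5 CPM in moderate, and COL4A2 at medians of 30.1 and 20.6 CPM. Their log2 fold changes were -0.48 ± 0.19 and -0.47 ± 0.22. In the angiogenesis and Notch list, lower in 18 of 28 (median -0.07), THSD1, an endothelial adhesion protein, had medians of 19.2 and 15.1 CPM, both below the lowest room air value of 21.5 CPM. S1PR1, the endothelial and astrocytic receptor of sphingosine 1-phosphate, was at 244 and 281 CPM, with 6 of 6 moderate libraries above the mild median. Endothelial markers themselves were split 6 to 6. Genes of cell division were lower in 13 of 16 (median -0.29). The mitotic genes CENPF and KIF11 were at medians of 1.45 and 0.619 CPM in mild and 0.462 and 0.331 CPM in moderate. MCM3, a helicase subunit of DNA replication, went the other way, at 29.3 and 35.9 CPM (0.24 ± 0.08).

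Whether the NTS difference was particular to this region was tested on all 72 libraries, as the NTS difference minus the mean of the same difference in mPFC, RTN and the ventral respiratory column (VRC). edgeR called 0 of 16372 genes (0%), with 253 (1.55%) at an unadjusted p under 0.05 and a smallest adjusted p of 0.99995. In the same fit moderate against mild called 0 genes in NTS, mPFC and RTN and 260 in VRC. The smallest adjusted p in NTS in that fit was 0.0547, for a gene with no symbol (ENSCHIG00000021169, log2 fold change 5.04). The smallest p of this test was that of TTR, with a difference of 5.96 ± 1.46. Single libraries stood far above their group's median in this gene. TTR reached 1595 CPM in moderate NTS against a median of 72.8 CPM. In mild libraries it reached 322 against 20.4 CPM in RTN and 34.7 against 2.51 CPM in mPFC. The second smallest p was that of KCNJ13 (4.26 ± 1.07), which in NTS was highest in moderate replicate 5 at 76.3 CPM.

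The values in the other regions are given side by side. HLA-DRA had log2 fold changes of -1.32 in NTS, -1.20 in RTN, -1.78 in VRC and 0.47 in mPFC. For CD4 these were -1.52, -0.87, -2.19 and -0.08, and for RSAD2 -1.33, -1.24, -1.46 and -0.03, in the same order. The values of these 3 genes were thus between -2.19 and -0.87 in the hindbrain regions and between -0.08 and 0.47 in mPFC. No difference between regions was called, and 0 of 13 antigen presentation genes had an unadjusted p under 0.05 in that test. FKBP5 had values of 0.76 in NTS, 0.99 in RTN, 1.11 in VRC and 0.99 in mPFC. In each of the other 3 regions 1 moderate library was far above the rest, at 125 CPM against a median of 29.2 CPM in RTN, 106 against 21.8 CPM in VRC and 77.7 against 19.7 CPM in mPFC. The mild medians of FKBP5 were 18.5, 13.8 and 13.8 CPM in the same order. ETNPPL was at 0.47, 0.38, 0.33 and 0.44, and HENMT1 at -0.54, -0.51, -0.32 and -0.18. PC was at 0.37, 0.36 and 0.44 in the hindbrain regions and 0.07 in mPFC. POP1 was at 0.73 in NTS and between -0.27 and -0.19 elsewhere. Mild replicate 3 was highest of the mild libraries in leukocyte genes in VRC (3.42), RTN (1.68) and mPFC (2.10), and second to replicate 5 in NTS. With 72 libraries and 6 animals for each condition, regions share animals, so these values are not independent. The test of the difference took libraries as independent, and the consensus correlation of libraries with the same condition and replicate number was 0.175.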

How the data were processed

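The deposited table gives, for 21343 goat genes, raw counts and RPKM of each library and the gene length, which is of the kind other. Per the submitters' processing notes the authors used STAR and featureCounts, after FastQC and Trimmomatic, and edgeR. Tool versions and the genome build were not given in the sources used here, so coordinates are left out and chromosomes alone are printed. The authors' deposited RPKM imply library sizes 1.0056 to 1.0066 times the summed counts, so no further scaling was applied. A symbol is given for 14700 genes.

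The 18 NTS libraries were fitted together on the deposited counts with edgeR 4.0.16 in R 4.3.3 (TMM, filterByExpr at a minimum count of 10, quasi-likelihood F-test, Benjamini-Hochberg at 0.05). CPM use TMM library sizes, and SE is the log2 fold change divided by the root of F. Libraries of 1 group differed by chi-squares of 15.3 to 219 per degree of freedom, so none were near copies.

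The libraries were chosen by their labels, and the 46 lists (30 of pathways, 16 of cell types) were chosen with earlier results of these data known. Lists got no test. The text may name the 12 genes of smallest p in each direction with a symbol and at least 2 CPM, up to 4 members of each list, all neuropeptides, and the 3 of smallest p each way for the difference between regions. Alternatives were RLE factors, no filter, DESeq2 1.42.0, limma 3.58.1 with quality weights, the replicate number as a block, the hypercapnic libraries alone, a myelin covariate and each library left out. edgeR's newer form and the removal of 2 libraries at once were chosen after seeing the data. The test was tried on simulated data. The regional test took libraries as independent, with condition and replicate as a block in an alternative.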

Additional observations from a re-analysis of the deposited data

Results flagged for a closer look

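In groups of 6 libraries, a value was singled out when its gap to the nearest other library exceeded 0.625 of the group's range. Of 178 groups checked for the genes named, 18 had such a library. About 9 would be flagged if values were independent and normal in shape. CPM need not be normal, many of these genes vary together and they were picked by their p. No excess over chance is therefore read from these counts.

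Mild replicate 5 was singled out for immune genes: LTB at 15.01 CPM, HLA-DOB at 37.4 CPM, ISG15 at 60.7 CPM and the T cell gene CD3D at 5.33 CPM. It was also the highest for ZNF180, at 16.3 CPM.

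Moderate replicate 3 was apart in peptide and activity genes, with GAL at 416 CPM, PDYN, the dynorphin precursor, at 90.6 CPM, EGR4 at 10.98 CPM and EGR1 at 40.6 CPM. Moderate replicate 5 was apart in choroid plexus genes, with TTR at 1638 CPM and KCNJ13 at 76.3 CPM.

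Mild replicate 2 stood out with UGT8 at 158 CPM, CSPG4 at 4.42 CPM, the lowest of its group, and NR4A1 at 13.5 CPM. Mild replicate 1 was lowest for SLC9A9 at 3.64 CPM and highest for KCNQ5 at 5.12 CPM. Mild replicate 6 was highest for PDK4 at 86.6 CPM and mild replicate 4 for FOS at 38.9 CPM.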

How the results depend on the processing

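edgeR and limma called 0 genes under every alternative run for moderate against mild, and DESeq2 called 1. At an unadjusted p under 0.05 there were 1259 genes with limma, 408 without mild replicates 3 and 5, and from 478 (without mild replicate 5) to 717 (without moderate replicate 1) with single libraries left out. The split of higher to lower, 263 to 357, became 241 to 237 without mild replicate 5, 307 to 255 without moderate replicate 4 and 209 to 199 without mild replicates 3 and 5. With the replicate number as a block, 0 genes were called by edgeR and 668 had an unadjusted p under 0.05. Same-numbered mild and moderate libraries had correlations of -0.156 to 0.462, over 0.1 in 3 of 6, and 1 of 6 lay closest to its own number, so the numbers were not taken as a pairing. For the difference between regions, RLE factors and limma with condition and replicate as a block called 0.

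Signs changed for a few genes near 0. With single libraries left out, TAC1 ran from -0.18 to 0.33, GAL from -0.48 to 0.19, NPY from -0.16 to 0.30, CCK from -0.033 to 0.28 and SLC5A7 from -0.0023 to 0.50. TAC1 was at -0.14 with limma, and without moderate replicates 3 and 5 TAC1 was at -0.031 and NPY at -0.051. GAL was at 0.0058 without mild replicates 3 and 5. With the myelin covariate ADCYAP1 was at -0.17 and SLC5A7 at -0.43. The cause was not tested. On counts simulated at this depth with 6 libraries a group and spread set to the trend, most 2-fold and few 1.5-fold changes were called.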

Other observations

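In 4 genes of smallest p on the higher side, picked after their values were seen, the moderate median lay nearer to room air than the mild median did. ALDH6A1 had medians of 94.7 CPM in room air, 82.7 CPM in mild and 104 CPM in moderate, MYLIP 29.3, 26.7 and 31.5 CPM, and POP1 2.69, 1.67 and 2.56 CPM. WDR6 was at 269, 203 and 300 CPM in the same order. Of the 9 genes of smallest p named on that side, the mild median was the nearer one in the other 5, ETNPPL, PC, GLS2, PALB2 and MIGA2. For these 4 genes the room air libraries overlapped with those of moderate hypercapnia. No test of this was run.

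Peptide genes differed in how the medians of both hypercapnia groups stood to room air. SST had medians of 517 CPM in room air, 1133 CPM in mild and 970 CPM in moderate, ADCYAP1 375, 676 and 891 CPM, and VIP, the vasoactive intestinal peptide, 1.25, 5.44 and 7.34 CPM. Medians were lower in both hypercapnia groups for PNOC (41.6, 30.0 and 34.4 CPM), NPY (22.3, 20.8 and 19.6 CPM) and CCK (74.9, 62.8 and 70.2 CPM). For each of these genes the room air range crossed those of both hypercapnia groups, as in SST at 240 to 1017 CPM in room air and 695 to 1657 CPM in mild. Cell markers differed too. On mean log2 CPM, myelin genes had medians of 7.61 in room air, 6.89 in mild and 6.68 in moderate, and motor neuron genes 4.33, 5.47 and 5.29. Room air replicate 1, whose quality weight of 0.241 was the lowest of the 18 libraries, was at 5.06 CPM for GAL, the lowest NTS value of that gene. These differences were not tested here.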
